A study of Mus musculus with 18 samples.

Results

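The 10 genes described here encode the CXC and CX3C chemokines Cxcl1, Cxcl2, Cxcl5, Cxcl9, Cxcl10, Cxcl12, Cxcl13, Cxcl14, Cxcl16 and Cx3cl1. They were taken by symbol from the 24421 gene symbols counted in 18 left-ventricle libraries, and all 10 were among the 13859 genes with enough counts to be tested. The study asked how age and loss of Sesn2, the gene of the stress-induced protein sestrin 2, change the response of the mouse heart to ischaemia and reperfusion (IR). Each of 6 groups held 3 libraries. Young wild-type (WT) C57BL/6J mice of 3 to 4 months came from Jackson, aged WT mice of 24 to 26 months from Charles River, and Sesn2 knockout (Sesn2-KO) mice of 3 to 4 months on the same background from the authors' own colony. Source therefore changed with age and with genotype and cannot be told apart from them. IR meant 45 min of closure of the left anterior descending artery and 24 h of reperfusion. Sham mice had a thoracotomy and no closure of the artery. A library is named here by its group and number, such as young sham 3.

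Chemokines are small secreted proteins that steer leukocytes through G protein-coupled receptors. Cxcl1, Cxcl2 and Cxcl5 carry a glutamate-leucine-arginine motif ahead of their first cysteines and attract neutrophils through CXCR2, and their genes are switched on by NF-kB downstream of interleukin 1 and TNF. Cxcl9 and Cxcl10 are induced by interferons and attract activated T cells and NK cells through CXCR3. Cxcl13 attracts B cells through CXCR5 and organises the B cell follicles of lymphoid tissue. Cxcl12 is made constantly by stromal cells and acts on CXCR4, with ACKR3 as its scavenger, while Cxcl14 is a constitutive chemokine of epithelia and stroma. Cxcl16 and Cx3cl1 are made as membrane-anchored proteins, are cut free by the proteases ADAM10 and ADAM17, and act on CXCR6 and CX3CR1. In the infarcted heart neutrophils enter within hours of reperfusion, and the neutrophil attractants are among the genes that draw them in.

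The promoters were read from RefSeq's table for mouse build GRCm38.p6, which held 8 of the 10 genes; Cxcl5 and Cxcl16 were not among them. The 6 printed are those of the genes whose levels moved most and of Cxcl10, the partner of Cxcl9. Each run covers the 250 bases before the annotated start, 5′ to 3′, in lower case, with matches to 2 searched motifs in capitals.
Cxcl1, chr5:90890995-90891244, plus strand: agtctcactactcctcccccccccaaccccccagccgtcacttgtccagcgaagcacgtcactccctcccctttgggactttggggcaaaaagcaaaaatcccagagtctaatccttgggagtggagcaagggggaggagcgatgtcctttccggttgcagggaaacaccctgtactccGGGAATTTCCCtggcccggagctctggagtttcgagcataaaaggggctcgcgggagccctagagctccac
Cxcl2, chr5:90903649-90903898, plus strand: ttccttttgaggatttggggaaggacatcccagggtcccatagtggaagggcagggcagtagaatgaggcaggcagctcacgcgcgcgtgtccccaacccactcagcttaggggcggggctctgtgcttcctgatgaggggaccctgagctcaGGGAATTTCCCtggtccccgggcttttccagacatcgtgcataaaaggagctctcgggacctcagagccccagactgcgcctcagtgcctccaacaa
Cxcl9, chr5:92328080-92328329, minus strand: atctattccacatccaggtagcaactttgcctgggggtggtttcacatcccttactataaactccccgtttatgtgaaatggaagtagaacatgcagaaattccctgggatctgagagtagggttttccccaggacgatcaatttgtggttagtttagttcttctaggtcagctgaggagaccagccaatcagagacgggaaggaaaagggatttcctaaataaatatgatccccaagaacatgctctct
Cxcl10, chr5:92348890-92349139, minus strand: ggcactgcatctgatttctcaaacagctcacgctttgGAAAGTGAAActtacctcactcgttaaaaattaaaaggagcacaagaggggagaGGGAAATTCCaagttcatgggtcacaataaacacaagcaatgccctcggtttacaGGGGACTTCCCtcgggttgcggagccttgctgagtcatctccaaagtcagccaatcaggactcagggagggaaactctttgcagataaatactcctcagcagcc
Cxcl13, chr5:95956689-95956938, plus strand: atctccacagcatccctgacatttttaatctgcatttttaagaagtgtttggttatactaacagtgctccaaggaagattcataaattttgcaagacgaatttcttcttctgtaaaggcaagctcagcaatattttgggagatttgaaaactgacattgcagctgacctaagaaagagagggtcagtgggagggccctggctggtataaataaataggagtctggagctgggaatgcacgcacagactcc
Cxcl14, chr13:56296552-56296801, minus strand: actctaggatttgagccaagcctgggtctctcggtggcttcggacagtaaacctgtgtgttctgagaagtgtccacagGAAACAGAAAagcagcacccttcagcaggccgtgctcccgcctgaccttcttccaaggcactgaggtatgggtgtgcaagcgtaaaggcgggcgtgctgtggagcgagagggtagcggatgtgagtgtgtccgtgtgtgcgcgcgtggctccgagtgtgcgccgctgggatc

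The motifs were the NF-kB consensus and a paired GAAA word with 2 bases between (a repeat recognised by interferon regulatory factors), each searched on both strands with overlapping matches joined. Cxcl1 and Cxcl2 carried the same 10 bases, GGGAATTTCC, at 71 to 62 and 97 to 88 bases before their starts, and in both the reverse strand matched again 1 base further on. The Cxcl10 promoter held an NF-kB match at 159 to 150 bases, overlapping ones between 104 and 94 bases, and GAAAGTGAAA at 213 to 204 bases. Cxcl14 held GAAACAGAAA at 172 to 163 bases before the start. Neither motif was found in these windows of Cxcl9, Cxcl13, Cxcl12 or Cx3cl1, which says only that these letters were not there. Of 32851 RefSeq promoter windows of the same length, 7.25% held the NF-kB consensus and 2.98% held the paired GAAA word.

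In the genome (GRCm38, GENCODE M21) 6 of the 10 genes lie on chromosome 5. Cxcl5 is at chr5:90759360-90761624, Cxcl1 at chr5:90891241-90893115 and Cxcl2 at chr5:90903871-90905938, all on the plus strand. Cxcl9 (chr5:92321347-92328079) and Cxcl10 (chr5:92346638-92348889) follow on the minus strand, and Cxcl13 is at chr5:95956951-95961068 on the plus strand. The others are Cxcl12 at chr6:117168535-117181367, Cx3cl1 at chr8:94772009-94782427, Cxcl16 at chr11:70453983-70459984 and Cxcl14 at chr13:56288643-56296551. All are protein-coding genes with 3 to 5 exons in their longest coding transcript. Counts were made over genes, so they do not separate exons or untranslated regions.

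The libraries held 9404531 to 14458047 gene counts, so 1 count was worth 0.0692 to 0.106 CPM (counts scaled to a gene total of 1000000). Sesn2 itself had 2.50 to 6.03 CPM in the 12 WT libraries and 0 to 0.362 CPM in the 6 Sesn2-KO libraries. No library thus went against its genotype label, while the labels of age and surgery cannot be checked by this gene. Cardiomyocyte markers, 10 genes summed, stood at 47060 to 49450 CPM in young sham and 47460 to 48880 CPM in aged sham hearts. All other groups were lower, with 38950 to 39840 CPM in Sesn2-KO sham and 38730 to 41550 CPM in young IR hearts. Aged IR hearts had 37550 to 42100 CPM and Sesn2-KO IR hearts 34540 to 38780 CPM. The part of this difference in the chemokine levels was not tested. A library that stood apart was young sham 3, in which Igtp, the gene of an interferon-inducible GTPase, reached 1598 CPM, against 28.4 to 155 CPM in the other 17 libraries. The tissue is a homogenate, so more cells of a type and more RNA per cell cannot be told apart in any result below. The labels name no litter, surgery day or batch, and p-values measure only the spread between these samples.

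**Figure D1:**
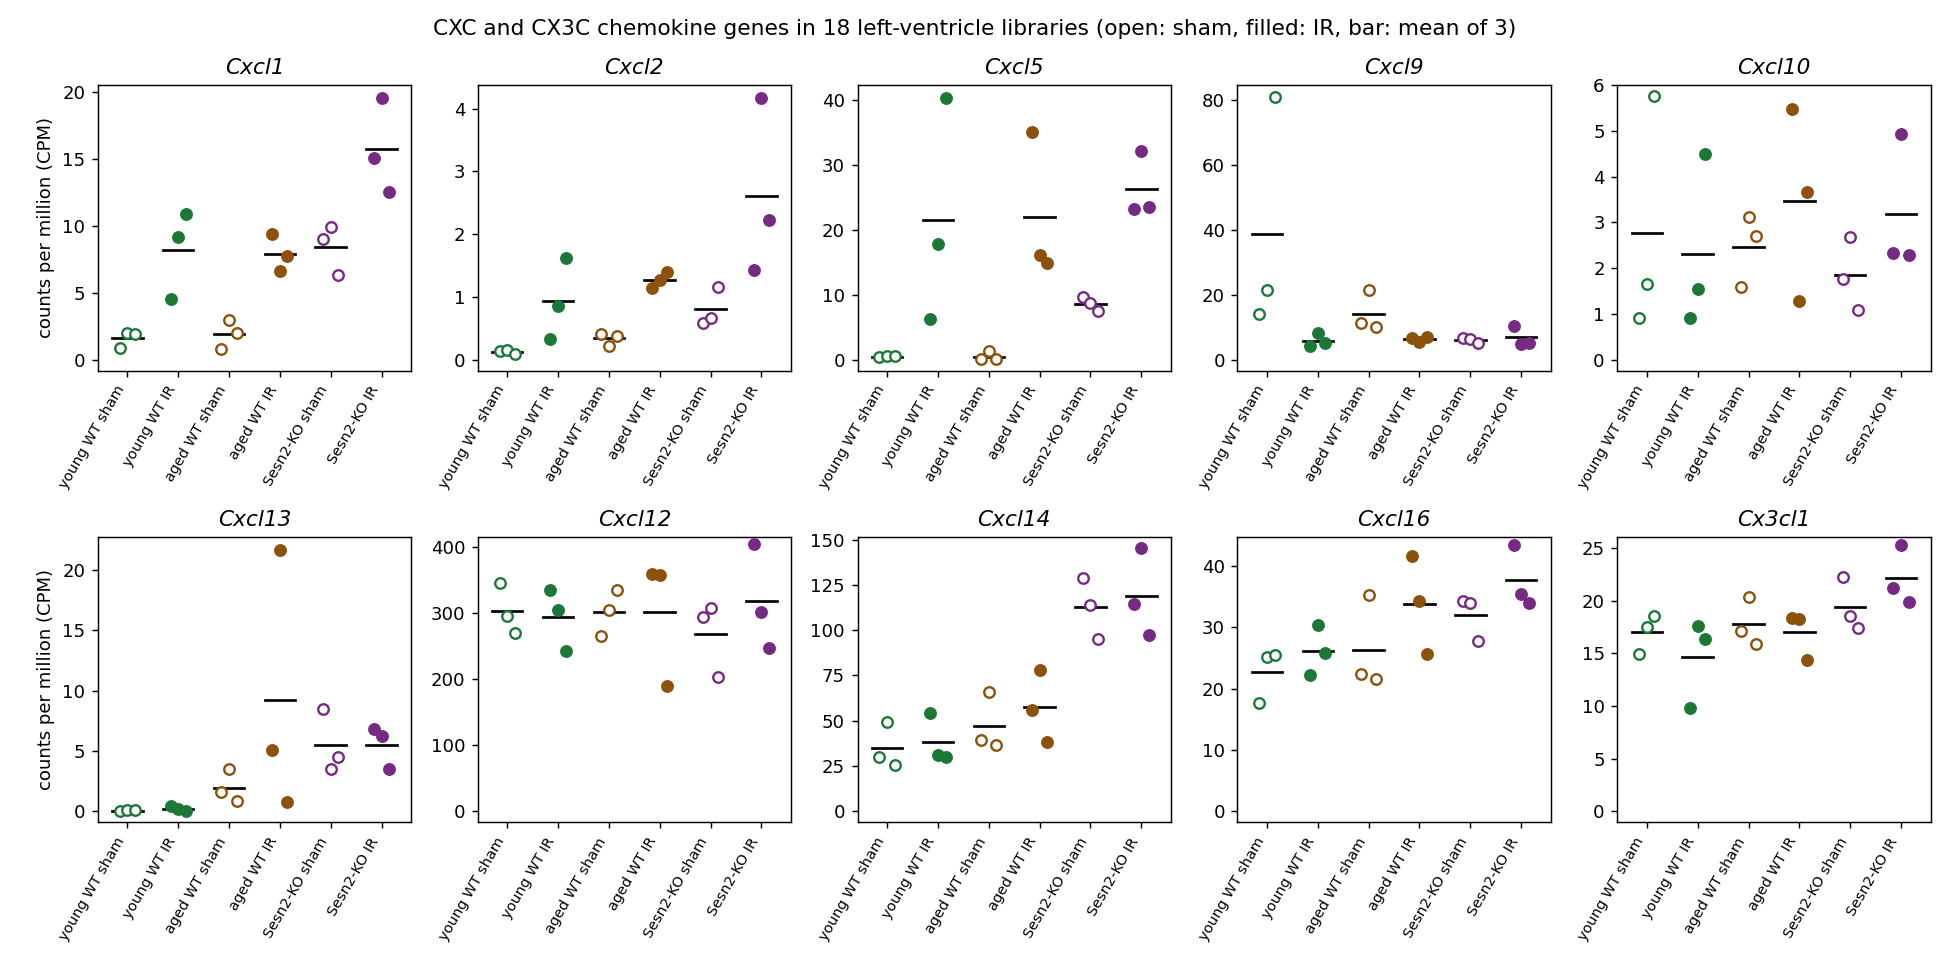
CPM of each chemokine gene in the 18 libraries, 3 points per group (open for sham, filled for IR) with a bar at the group mean, each panel on its own linear axis. The neutrophil attractants Cxcl1, Cxcl2 and Cxcl5 are low in WT sham hearts and higher in Sesn2-KO sham and all IR groups, Cxcl9 is highest in young sham hearts with young sham 3 at 80.7 CPM, and Cxcl14 is above 95 CPM in the Sesn2-KO hearts only.

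IR raised all 3 neutrophil attractants in young and in aged WT hearts, and all 3 were higher in Sesn2-KO sham hearts than in young WT sham hearts. Young sham 1, 2 and 3 served as the control of both the young IR and the Sesn2-KO sham hearts, so these 2 comparisons are not independent. Cxcl5, a strong neutrophil attractant of epithelial and stromal origin, had 0.351, 0.549 and 0.487 CPM in young sham 1, 2 and 3. After IR it had 6.33, 17.9 and 40.3 CPM in the young libraries. The IR values did not overlap the sham values. In aged hearts Cxcl5 had 0.0692, 1.26 and 0.0935 CPM after sham surgery and 35.0, 16.2 and 14.9 CPM after IR. These groups were again apart, and aged sham 2 was well above the other 2 aged sham libraries. In Sesn2-KO hearts Cxcl5 was already at 9.67, 8.78 and 7.45 CPM after sham surgery and at 23.2, 32.2 and 23.5 CPM after IR. Every Sesn2-KO sham library was thus above every WT sham library and below every Sesn2-KO IR library.

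The log2 fold change of Cxcl5 after IR was 5.48 ± 0.74 (SE, adjusted p = 0.000617) in young WT and 5.47 ± 0.73 (adjusted p = 0.000619) in aged WT, by edgeR's quasi-likelihood test with Benjamini-Hochberg adjustment, as for all adjusted p-values here unless another tool is named. The aged value was 7.96 without aged sham 2, and the young value 4.66 without young IR 3. In linear terms the pooled counts gave a 45.0-fold ratio per total in young hearts (730 against 18 counts, counting interval 28.3 to 76.4). That interval covers counting error only. Between libraries the approximate 95% interval was 4.04 to 6.93 on the log2 scale. In Sesn2-KO hearts the change was 1.55 ± 0.52 and did not pass (adjusted p = 0.219). Sesn2-KO sham hearts exceeded young WT sham hearts by 4.20 ± 0.75 (adjusted p = 0.00451), whereas the IR hearts differed by 0.27 with an approximate 95% interval of -0.70 to 1.25. The difference of the IR response between Sesn2-KO and young WT was -3.93 ± 0.93 for Cxcl5, the largest among the 10 genes, and did not pass over all genes (adjusted p = 0.336). Over 20 alternatives this difference was -4.36 to -2.91. The largest size, -4.36, came without young IR 1, the library with the lowest Cxcl5 of its group (adjusted p = 0.0397). Without young sham 3 it was -3.98 (adjusted p = 0.791).

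Cxcl1, the mouse keratinocyte chemoattractant, was likewise lower in the WT sham hearts than in the other 4 groups. It had 0.842, 1.96 and 1.95 CPM in young sham hearts, and 4.50, 9.20 and 10.9 CPM in young hearts after IR. Aged hearts had 0.761, 2.97 and 1.96 CPM after sham surgery and 9.37, 6.59 and 7.77 CPM after IR. Sesn2-KO hearts had 9.01, 9.90 and 6.30 CPM after sham surgery and 15.1, 19.6 and 12.5 CPM after IR. In all 3 mouse groups the IR libraries were above the sham libraries, and the Sesn2-KO IR libraries were above every other library. Cxcl1 rose with IR by 2.34 ± 0.42 in young WT (adjusted p = 0.00423) and by 2.08 ± 0.41 in aged WT (adjusted p = 0.00729). Sesn2-KO sham hearts had 2.41 ± 0.42 more on the log2 scale than young WT sham hearts (adjusted p = 0.00337). The response to IR within Sesn2-KO was 0.85 ± 0.36 (adjusted p = 0.284), and Sesn2-KO against young WT after IR was 0.92 ± 0.36 (adjusted p = 0.294).

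Cxcl2, known as macrophage inflammatory protein 2, was the least abundant of the neutrophil attractants, with 5 counts in all over the 3 young sham libraries. Its levels were 0.140, 0.157 and 0.0811 CPM in young sham hearts and 0.333, 0.850 and 1.62 CPM after IR. In aged hearts they were 0.415, 0.222 and 0.374 CPM after sham surgery and 1.14, 1.28 and 1.40 CPM after IR. The Sesn2-KO libraries had 0.586, 0.670 and 1.16 CPM after sham surgery and 1.42, 4.17 and 2.22 CPM after IR. None of these sham groups overlapped its own IR group. Cxcl2 rose by 2.74 ± 0.67 with IR in young WT (adjusted p = 0.0240), by 1.90 ± 0.55 with IR in aged WT (adjusted p = 0.0456), and stood 2.58 ± 0.67 higher in Sesn2-KO than in young WT sham hearts (adjusted p = 0.0365).

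Those calls of Cxcl2 rested on single libraries, while its direction did not. In young WT the call was lost without young sham 1, 2 or 3 (adjusted p = 0.0827, 0.0577 and 0.0889) and without young IR 2 or 3 (adjusted p = 0.0541 and 0.129). In aged WT it was lost without aged sham 1, 2 or 3 (adjusted p = 0.131, 0.121 and 0.108) and without aged IR 1, 2 or 3 (adjusted p = 0.116, 0.0734 and 0.103). For Sesn2-KO against young WT sham it was lost without young sham 1, 2 or 3 (adjusted p = 0.110, 0.0815 and 0.123) and without Sesn2-KO sham 1, 2 or 3 (adjusted p = 0.0514, 0.0620 and 0.119). The log2 fold change of Cxcl2 stayed between 1.67 and 3.12 in all alternatives of these 3 comparisons. No single library removed the calls of Cxcl1 or Cxcl5.

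In 10 of the 18 libraries the deviation from the group followed transcript length. Without these 10, Cxcl5 differed by 4.54, 7.32 and 4.22 and Cxcl1 by 1.75, 1.78 and 2.14 in the 3 comparisons. Young sham (young sham 3), aged sham, aged IR and Sesn2-KO sham hearts then kept a single library each. That setting therefore cannot show whether a call depends on transcript length. With transcript length as a covariate over all libraries, none of the calls of the 10 chemokine genes was lost.

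Set against all genes, 4 of the 10 chemokine genes were called in young WT IR against sham, where 6.07% of all tested genes were called. In aged WT the count was 3 of 10, against 7.61% of all genes. In Sesn2-KO IR against sham none of the 10 was called, against 0% of all genes, so that a count of 0 is no finding about the chemokines. At an unadjusted p below 0.05 that comparison had 3 of the 10, the neutrophil attractants, and 2037 of all genes, and the DESeq2 Wald test called none of the 10 and 138 of all genes. For Sesn2-KO against young WT sham hearts 6 of 10 were called, against 5.11% of all genes. The calls in 1 direction were 3 higher of 10 in young WT (4.17% of all genes) with 1 lower (1.9%), 3 higher in aged WT (5.36%) with 0 lower (2.24%), and 5 higher in Sesn2-KO sham hearts (3.32%) with 1 lower (1.79%).

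Separation of the 3 libraries of a group from the 3 of the other was counted as well. With IR, 3 of the 10 genes lay wholly higher in young WT (12.7% of all genes) and 1 wholly lower (9.63%). The counts were 3 (14.8%) and 1 (13.8%) in aged WT, and 3 (12.6%) and 0 (5.49%) in Sesn2-KO. Between Sesn2-KO and young WT they were 6 (14.9%) and 1 (10.5%) in sham hearts and 5 (8.14%) and 0 (4.6%) in IR hearts. Between aged and young WT they were 2 (5.71%) and 0 (6.57%) in sham hearts and 1 (2.44%) and 0 (5.55%) in IR hearts. The median log2 fold change of the 10 genes was 0.15, 0.45 and 0.19 for IR in young WT, aged WT and Sesn2-KO and 1.09 for Sesn2-KO sham hearts, beside 0.01, 0.00, -0.00 and 0.02 over all genes.

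**Figure D2:**
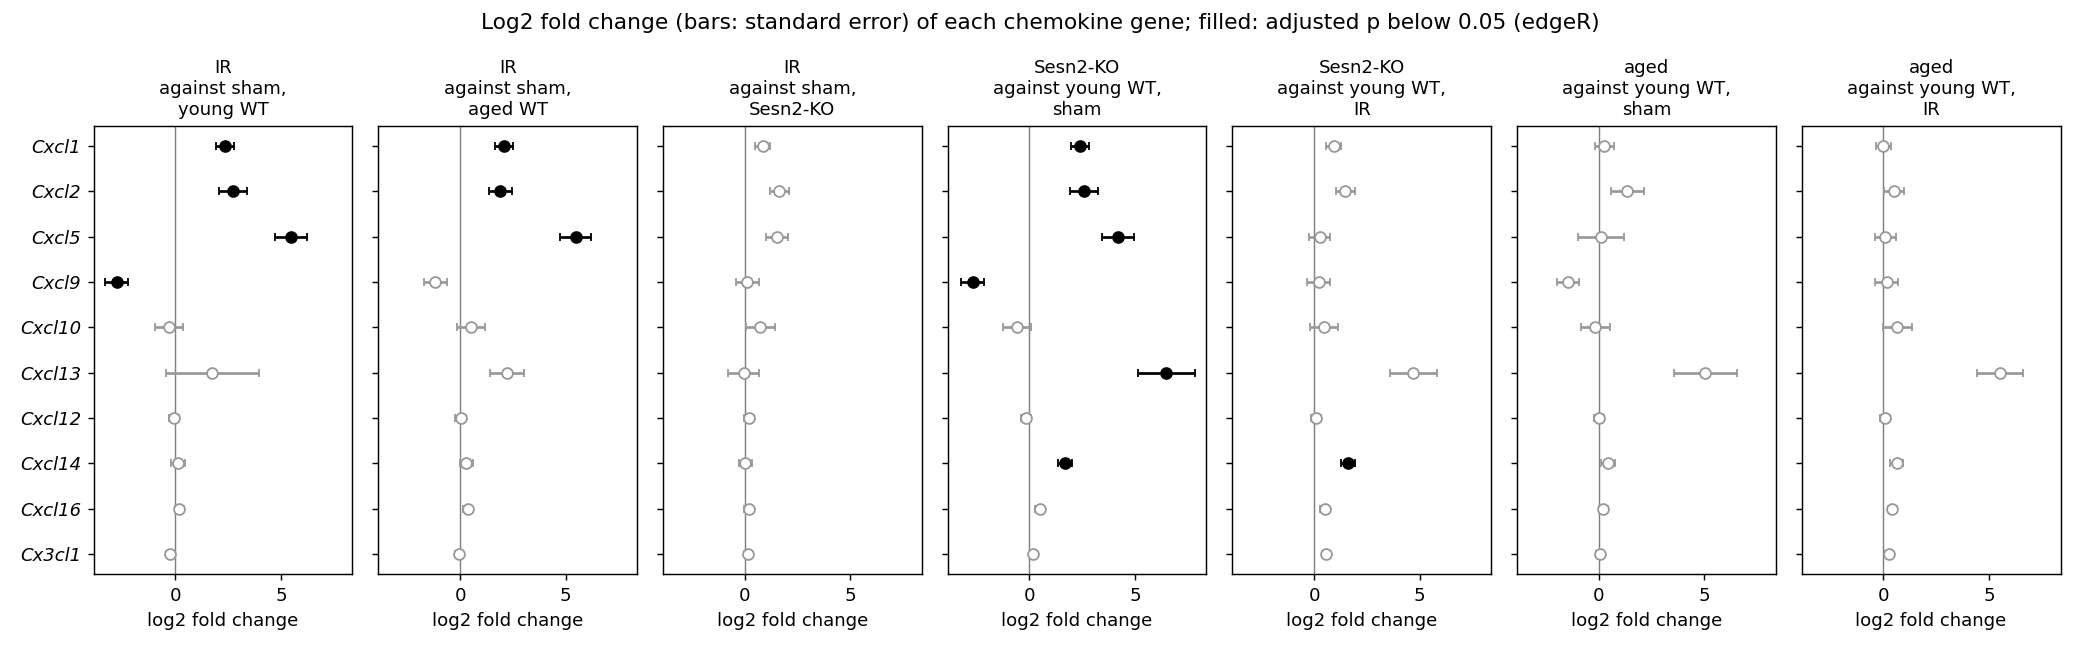
Log2 fold change (x axis) of each chemokine gene (rows) in 7 comparisons (panels), with bars of 1 standard error, where filled black points have an adjusted p below 0.05 in edgeR and grey points do not. Cxcl1, Cxcl2 and Cxcl5 lie to the right in the panels for IR in young and aged WT and for Sesn2-KO sham hearts, Cxcl9 lies at -2.78 and -2.69 in 2 of these, and Cxcl14 is filled in both panels of Sesn2-KO against young WT.

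Neutrophil markers moved with the attractants. The summed level of 15 neutrophil marker genes was 12.6 to 18.9 CPM in young sham and 13.0 to 35.5 CPM in aged sham hearts. It was 194 to 522 CPM in young IR, 392 to 633 CPM in aged IR, 255 to 667 CPM in Sesn2-KO sham and 464 to 714 CPM in Sesn2-KO IR hearts. Of the 15 genes 14 rose with IR in young WT, 13 in aged WT and 0 in Sesn2-KO, and 12 were higher in Sesn2-KO than in young WT sham hearts (medians 4.41, 4.02, 0.83 and 3.72). Over all genes 4.17%, 5.36%, 0% and 3.32% were called higher, so that the 0 in Sesn2-KO is no finding about neutrophil genes. Without young sham 3 the counts in the first and last of these comparisons were 10 and 6. For the difference of the IR response, Sesn2-KO minus young WT, the median was -3.28. There 2 of the 15 were called lower, Clec4d (-3.35) and Lcn2 (-5.95), beside 0.0577% of all genes. Both calls were lost when some single libraries were left out (adjusted p up to 0.0899 and 0.0912). S100a8, the calprotectin subunit gene of neutrophils, had 0.912, 1.02 and 1.79 CPM in young sham hearts and 26.0, 8.34 and 14.8 CPM in Sesn2-KO sham hearts. Of 16 monocyte and macrophage markers, 5 rose with IR in young WT, 4 in aged WT and 0 in Sesn2-KO. In Sesn2-KO sham hearts 5 were higher than in young WT (medians 0.55, 0.56, 0.14 and 0.67), beside the same shares of all genes. The calls of Msr1 held without each single library, but those of the other markers did not all hold. The part of neutrophils, monocytes and macrophages in the chemokine levels was not tested.

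Cxcr2, the receptor of these ligands and itself one of the neutrophil markers, rose by 4.41 ± 0.71 in young WT (adjusted p = 0.00224) and by 4.19 ± 0.63 in aged WT (adjusted p = 0.00132) with IR, and was 3.12 ± 0.75 higher in Sesn2-KO sham hearts (adjusted p = 0.0255). Its mean level was 0.187 CPM in young sham and 1.63 CPM in Sesn2-KO sham hearts, while the second receptor gene, Cxcr1, had 0 to 3 counts in each group. The calls of Cxcr2 in WT held without each single library, but that in Sesn2-KO sham hearts was lost without young sham 1, 2 or 3 and Sesn2-KO sham 1 or 3 (adjusted p up to 0.102). Among 9 tested genes of NF-kB feedback and upstream cytokines, 4 rose with IR in young WT and the same number in aged WT, and 5 were higher in Sesn2-KO sham hearts, with none lower. Over all genes 4.17%, 5.36% and 3.32% were called higher in these comparisons. The NF-kB feedback genes Nfkbia, Nfkbiz and Tnfaip3 of this list were called in no comparison. Il1b, the gene of interleukin 1 beta, rose by 3.37 ± 0.65 in young WT and 3.00 ± 0.64 in aged WT, and was 2.98 ± 0.65 higher in Sesn2-KO sham hearts. Il6 moved by 5.07, 4.68 and 4.88 in the same comparisons, with means of 0.0495 CPM in young sham and 1.78 CPM in Sesn2-KO sham hearts. The receptor genes Il17ra (1.28, 1.69 and 1.24) and Il1r1 (0.97, 1.08 and 0.87) also rose in all 3, and Zfp36, whose product degrades chemokine mRNA, was higher by 0.74 ± 0.15 in Sesn2-KO sham hearts. The median of that list was 0.72, 0.70 and 0.74, beside 0.01, 0.00 and 0.02 over all genes.

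The calls of Il6 and Il1r1 held in these 3 comparisons without each single library. Il1b was not called without aged sham 1 in aged WT (adjusted p = 0.0763), nor without young sham 1 or 3 in Sesn2-KO against young WT sham hearts (adjusted p up to 0.0728). Il17ra was lost without young sham 1 or young IR 3 in young WT (up to 0.0694) and without young sham 1 or Sesn2-KO sham 3 in the sham comparison (up to 0.0660). Zfp36 was lost without young sham 3 (adjusted p = 0.0617). With that library left out, 3 of the 9 list genes were called in the sham comparison.

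Cxcl3, the near copy of Cxcl2, was outside the 10 genes and was called in no comparison. It had 0 counts in all 6 WT sham libraries and 54 counts over the young IR, 37 over the aged IR, 27 over the Sesn2-KO sham and 118 over the Sesn2-KO IR libraries. The pooled counts were set against the limit of 3 counts that a count of 0 allows over a group. They were at least 19.98-fold higher in young IR, 14.0-fold in aged IR and 8.65-fold in Sesn2-KO sham than in the matching WT sham hearts. These bounds cover counting in the group with 0 counts only, not the spread between libraries. The tests between libraries did not pass (adjusted p = 0.0758, 0.106 and 0.211). Young IR 3 alone held 43 of the 54 counts and aged IR 3 held 22 of the 37. Within its group Sesn2-KO sham 2 had no count of Cxcl3. Of the 50-base words of the Cxcl2 transcripts 3.37% also occur in Cxcl3, so reads there could be split between the pair, whereas Cxcl1 shared none with any gene. Of the platelet chemokine genes, Ppbp rose with IR in young WT (1.62 ± 0.34) and aged WT (1.91 ± 0.33), and Pf4 rose in aged WT (1.13 ± 0.29). Ppbp was lost in young WT without young sham 1 or 3 (adjusted p up to 0.0588), and Pf4 without aged sham 1 or 3 or aged IR 1 (up to 0.142).

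The interferon-induced pair did not move together. Cxcl9 fell with IR in young WT and was lower in Sesn2-KO than in young WT sham hearts, while Cxcl10 passed in no comparison. Cxcl9 had 14.1, 21.4 and 80.7 CPM in young sham 1, 2 and 3, and 4.08, 8.12 and 5.06 CPM after IR. In aged hearts it had 11.1, 21.4 and 9.91 CPM after sham surgery and 6.55, 5.32 and 6.81 CPM after IR. Sesn2-KO hearts had 6.67, 6.33 and 5.14 CPM after sham surgery and 10.5, 4.92 and 5.26 CPM after IR. All 6 WT sham libraries were above all 6 WT IR libraries, and the Sesn2-KO sham libraries lay in the range of the WT IR libraries.

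The log2 fold change of Cxcl9 was -2.78 ± 0.54 for IR in young WT (adjusted p = 0.00722) and -2.69 ± 0.53 for Sesn2-KO against young WT sham hearts (adjusted p = 0.00880). Young sham 3 set much of the size of both. Without it they were -1.63 (adjusted p = 0.0313) and -1.54 (adjusted p = 0.0398), which still passed. With only the compared groups in the fit, neither passed (adjusted p = 0.102 and 0.0839). In aged WT the change with IR was -1.17 ± 0.53 (adjusted p = 0.195), but passed with only those groups in the fit (-1.19, adjusted p = 0.0467). In Sesn2-KO it was 0.12 ± 0.55 (adjusted p = 0.943), and aged against young sham hearts differed by -1.46 ± 0.50 (adjusted p = 0.706), or -0.31 without young sham 3. The difference of the IR response between Sesn2-KO and young WT was 2.90 ± 0.76, with an adjusted p of 0.475 in edgeR and 0.0223 in DESeq2, and 1.76 (adjusted p = 0.964) in edgeR without young sham 3.

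Cxcl10 had 0.912, 1.65 and 5.76 CPM in young sham and 0.916, 1.55 and 4.48 CPM in young IR hearts. It had 1.59, 3.11 and 2.71 CPM in aged sham and 5.48, 1.28 and 3.67 CPM in aged IR hearts. The Sesn2-KO hearts had 1.76, 2.68 and 1.09 CPM after sham surgery and 2.33, 4.92 and 2.30 CPM after IR. All 6 groups overlapped, and the fold change with IR was -0.31 in young WT, with an approximate 95% interval of -1.63 to 1.02. The direction turned without young sham 3, where the IR value was 0.82, and Sesn2-KO against young WT sham went from -0.59 to 0.54. Cxcl10 lies inside the gene Art3, which is on the other strand and had 289 to 596 CPM; the strand option of the counting is not given in the sources used here, so reads of the pair cannot be told apart for certain. The number of Cxcl9 counts per Cxcl10 count, a ratio that library scaling does not touch, was 15.5, 13.0 and 14.0 in young sham hearts, 7, 6.86 and 3.66 in aged sham hearts, and 1.00 to 5.25 in the other 12 libraries. Young sham 3 was thus high in both genes and like its group in their ratio.

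Other interferon genes were high in young sham 3 as well. Its Gbp5 was at 129 CPM against 11.7 to 41.4 CPM in the other 17 libraries, and its Cd274, the gene of the checkpoint ligand PD-L1, at 339 CPM against 9.08 to 49.7 CPM. Of 18 tested genes of the interferon gamma axis 7 fell with IR in young WT, 0 in aged WT and 0 in Sesn2-KO, and 5 were lower in Sesn2-KO than in young WT sham hearts (medians -2.15, -0.76, 0.04 and -2.05). Over all genes 1.9%, 2.24%, 0% and 1.79% were called lower in these comparisons. Gbp3 (-2.43 ± 0.58), Gbp5 (-2.06 ± 0.48), Cd274 (-3.36 ± 0.79) and Ciita (-2.04 ± 0.54), the regulator of MHC class II genes, were among those that fell in young WT. Without young sham 3 none of the 18 passed in either comparison, and the medians were -0.25 and -0.11. Of 14 genes of the type I interferon axis, 2 fell with IR in young WT (Ifit2 and Rsad2) and 2 were lower in Sesn2-KO sham hearts (Rsad2 and Stat2), and 0 and 1 passed without that library. Beside young sham 3, leaving out young IR 2 or 3 also ended the calls of Gbp3, Gbp5, Cd274, Ciita, Ifit2 and Rsad2 with IR, and young IR 1 those of Cd274, Ciita, Ifit2 and Rsad2 (adjusted p up to 0.254). Stat2 was also lost without Sesn2-KO sham 1, 2 or 3 (up to 0.223 over the 4 libraries). Cxcr3, the receptor gene of the pair, had mean levels of 0.184 to 0.921 CPM over the 6 groups and was called in no comparison.

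**Figure D3:**
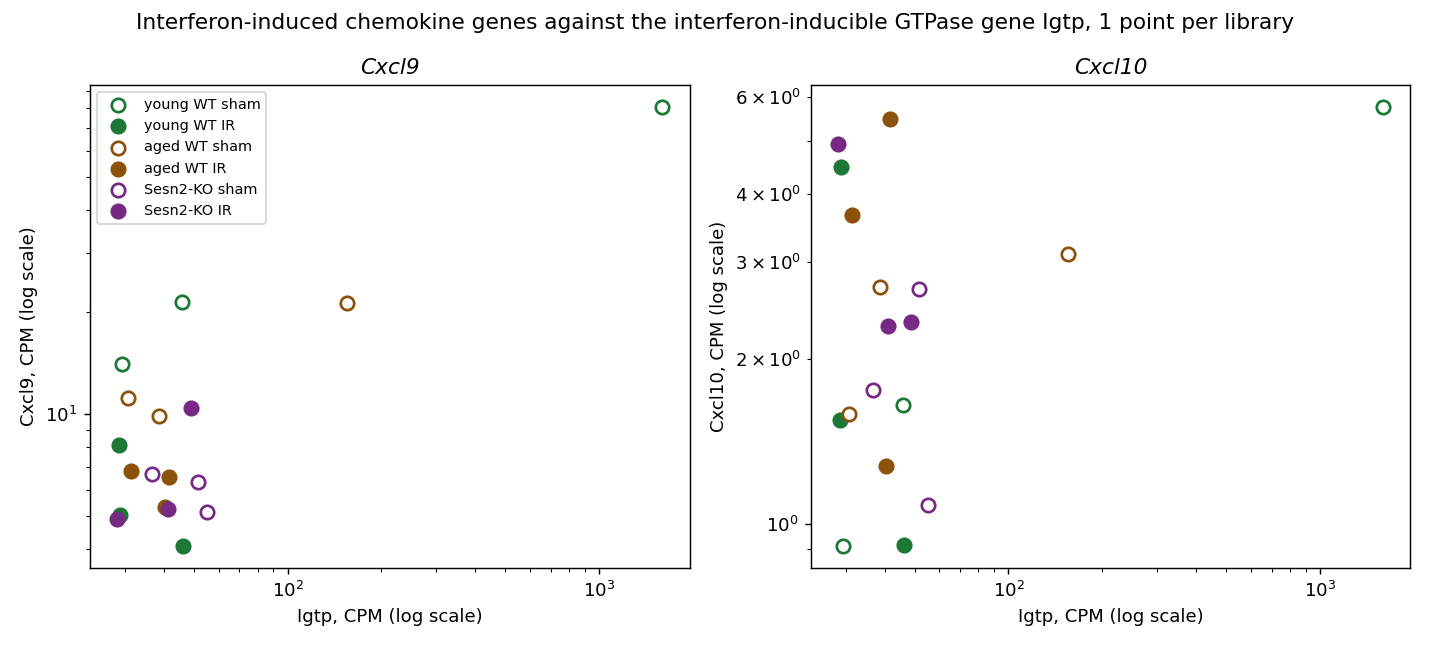
Cxcl9 (left) and Cxcl10 (right) against the interferon-inducible gene Igtp, all in CPM on log axes, with 1 point per library (open for sham, filled for IR). Young sham 3 stands alone at the right with 1598 CPM of Igtp, and the other 2 young sham libraries exceed all IR libraries in Cxcl9 at Igtp levels within the range of those libraries.

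The level of the neutrophil attractants relative to the interferon-induced pair was compared per length, as summed CPM per kb of the longest coding transcript. The ratio of Cxcl1 + Cxcl2 + Cxcl5 to Cxcl9 + Cxcl10 was 0.213, 0.289 and 0.0744 in young sham and 0.212, 0.416 and 0.427 in aged sham hearts. After IR it was 4.27, 5.43 and 7.49 in young and 5.17, 6.42 and 3.63 in aged hearts. In Sesn2-KO hearts it was 4.41, 3.91 and 4.64 after sham surgery and 5.87, 8.10 and 8.31 after IR. The interferon-induced pair thus exceeded the neutrophil attractants in all 6 WT sham libraries, and the reverse held in the other 12 libraries, the Sesn2-KO sham hearts included. The neutrophil attractants made up 1.19% to 3.20% of the summed level of the 10 genes in WT sham hearts and 9.42% to 10.3% in Sesn2-KO sham hearts.

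**Figure D4:**
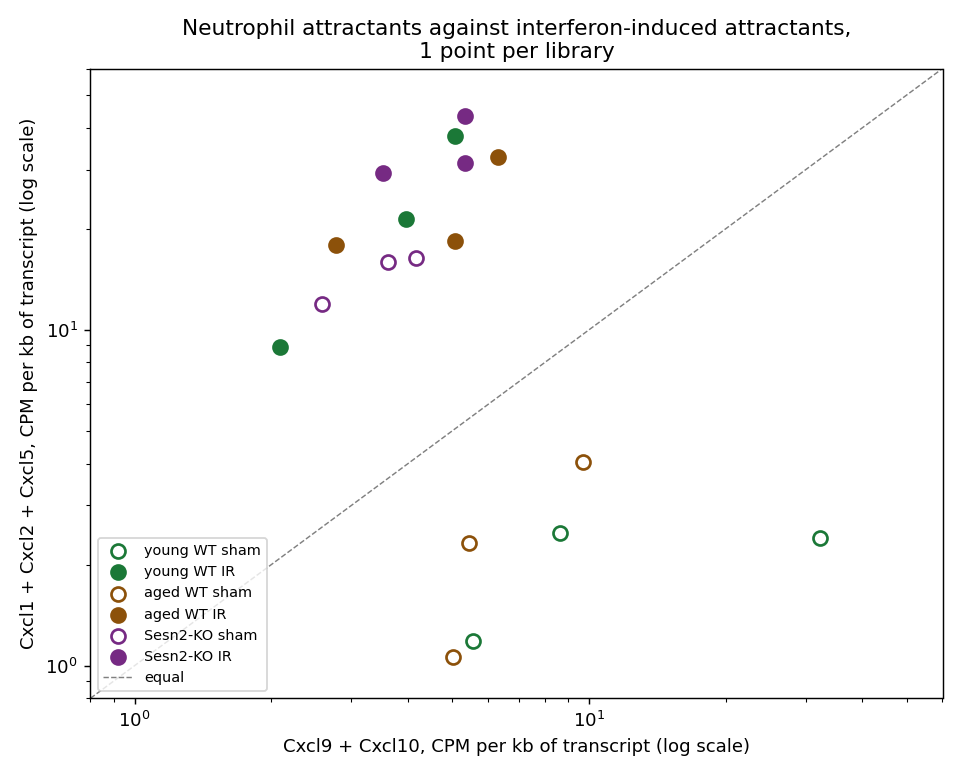
Summed level of the neutrophil attractants (y axis) against that of the interferon-induced pair (x axis), in CPM per kb of transcript on log axes, 1 point per library (open for sham, filled for IR), with a dashed line of equal levels. The 6 WT sham libraries lie below the line and the other 12, with the 3 Sesn2-KO sham libraries among them, lie above it.

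Cxcl13 was nearly absent from young WT hearts and present in all aged and Sesn2-KO hearts. Young sham 1, 2 and 3 had 0, 1 and 1 counts and young IR 1, 2 and 3 had 5, 2 and 0 counts, a level of at most 0.416 CPM. Aged sham hearts had 1.59, 3.48 and 0.841 CPM and aged IR hearts had 5.10, 21.7 and 0.785 CPM. Sesn2-KO hearts had 8.50, 3.50 and 4.49 CPM after sham surgery and 6.80, 6.26 and 3.48 CPM after IR. The young libraries were below all 12 others, and the aged IR libraries were widely spread, with aged IR 2 the highest and aged IR 3 the lowest of the 12.

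Per total count, Cxcl13 was 108-fold higher in Sesn2-KO than in young WT sham hearts (225 against 2 counts, counting interval 29.6 to 899) and 27.1-fold higher after IR (189 against 7 counts, 12.9 to 68.2). Aged sham hearts exceeded young ones by 40.2-fold (79 against 2 counts, 10.8 to 338), and aged IR hearts exceeded young ones by 41.7-fold (280 against 7 counts, 19.97 to 105). These intervals cover counting error only. Between libraries, the log2 difference of 6.49 ± 1.34 in Sesn2-KO sham hearts passed (adjusted p = 0.0112), but not without young sham 1 (5.92, adjusted p = 0.0574). After IR the Sesn2-KO difference was 4.70 ± 1.12 and just missed (adjusted p = 0.0825, and 0.00386 in DESeq2). With the replicate number as a block it was 4.87 (adjusted p = 0.0398). The aged sham hearts differed from the young ones by 5.05 ± 1.48 (adjusted p = 0.464). After IR that difference was 5.52 ± 1.10, with an adjusted p of 0.113 in edgeR and 0.000567 in DESeq2.

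Aged IR 2 and aged IR 3, the ends of the range, weighed on Cxcl13. Without aged IR 3, aged against young IR hearts differed by 6.07 (adjusted p = 0.00984) and the change with IR in aged WT was 2.76 (adjusted p = 0.0249), while with all libraries that change was 2.21 ± 0.80 (adjusted p = 0.102) and without aged IR 2 it was 0.56 (adjusted p = 0.669). Between aged and young sham hearts no chemokine gene was called, against 0.152% of all genes, and between aged and young IR hearts again none, against 0.0649%. At an unadjusted p below 0.05 these comparisons had 2 and 1 of the 10 genes and 615 and 553 of all genes, and DESeq2 called 0 and 1 of the 10 and 42 and 33 of all genes. Cxcl13 did not overlap between the groups in either, a separation that 5.71% of all genes showed upward in sham and 2.44% in IR hearts.

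B cell markers were low throughout. The summed level of 8 B cell marker genes was 7.22 to 8.84 CPM in young sham, 5.67 to 13.3 CPM in aged sham and 4.49 to 9.75 CPM in Sesn2-KO sham hearts, and 3.50 to 5.53, 5.50 to 12.3 and 5.18 to 11.9 CPM in young, aged and Sesn2-KO IR hearts. None of its 6 tested genes was called in any of the 9 comparisons. Their median log2 difference from young WT was 0.09 for aged and -0.42 for Sesn2-KO sham hearts, and 1.02 and 0.78 for the IR hearts. The part of B cells in the Cxcl13 level was not tested. Cd79a, a subunit gene of the B cell receptor, had 0.386 to 2.21 CPM over all libraries, with aged IR (1.06 to 2.21 CPM) wholly above young IR (0.386 to 1.05 CPM). Cxcr5, the receptor gene for Cxcl13, had mean levels of 0.278 to 0.758 CPM over the 6 groups and was called in no comparison. Of 5 plasma cell genes 2 (Jchain and Xbp1, median of the list 0.24) and of 7 T cell genes 2 (Cd3d and Cd3g, median 1.13) were higher in Sesn2-KO than in young WT sham hearts, and 1 of each list after IR (medians 0.58 and 2.03). Over all genes 3.32% were called higher in the sham comparison and 0.31% in the IR comparison. The sham call of Xbp1 was lost when any library of either group was left out (adjusted p up to 0.171). That of Cd3d was lost without any young sham library or Sesn2-KO sham 1 or 2 (up to 0.195). The plasma cell gene Jchain was higher in Sesn2-KO than in young WT hearts, by 2.44 ± 0.52 after sham surgery (adjusted p = 0.0133) and by 3.17 ± 0.61 after IR (adjusted p = 0.0339), and the T cell receptor gene Cd3g by 2.41 ± 0.60 and 3.30 ± 0.68. In sham hearts Jchain was lost only without young sham 3 (adjusted p = 0.0651), and in the IR comparison when any young IR library or Sesn2-KO IR 2 or 3 was left out (up to 0.157). Cd3g was lost without any young sham library or Sesn2-KO sham 1 or 2 (up to 0.134), and without any young IR library or Sesn2-KO IR 1 or 2 (up to 0.171).

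Genes that organise lymphoid tissue were mostly not called. Of 7 tested ones, Ltbr, the lymphotoxin beta receptor gene, rose by 0.41 ± 0.11 with IR in young WT and 0.50 ± 0.11 in aged WT, and Tnfsf11 rose by 3.23 ± 0.84 in aged WT from a mean of 0.0741 CPM. Ltbr was lost in young WT without young sham 1 or 3 or young IR 2 or 3 (adjusted p up to 0.152) and in aged WT without aged sham 1 or aged IR 1 (up to 0.0794), and Tnfsf11 without aged sham 1 or 3 or aged IR 1 (up to 0.175). None was called between Sesn2-KO or aged hearts and young WT hearts. Of 8 mesothelial markers, 2 were lower in Sesn2-KO than in young WT sham hearts, Upk3b (-4.15 ± 1.08) and Bnc1 (-4.96 ± 1.26), and 0 after IR. Beside 1.79% and 0.123% of all genes called lower, the markers had a median of -2.73 in both comparisons. Their summed level was 18.02 to 51.8 CPM in young sham and 5.36 to 12.2 CPM in Sesn2-KO sham hearts, and overlapped after IR (7.42 to 81.4 and 6.52 to 13.4 CPM). Both were lost without young sham 2 or 3 or any Sesn2-KO sham library (adjusted p up to 0.126). The part of these cells in the levels of Cxcl13 and Cxcl14 was not tested.

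**Figure D5:**
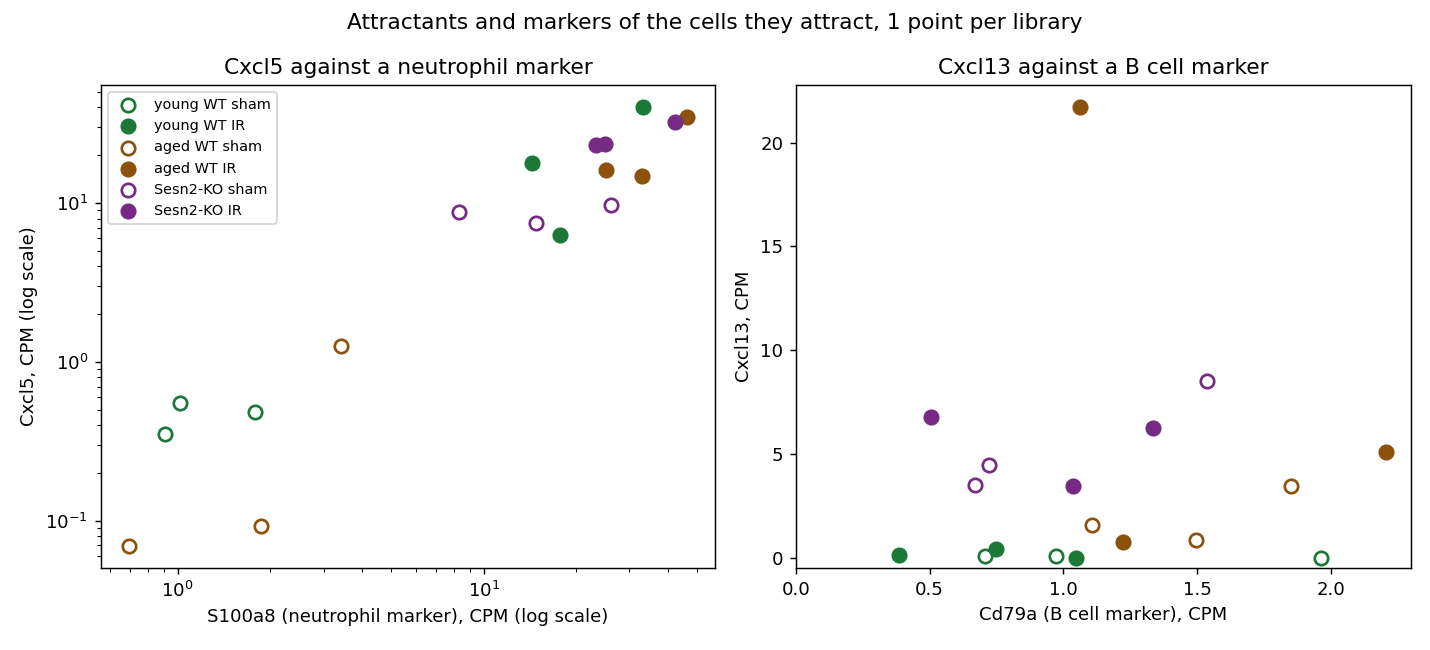
Left, Cxcl5 against the neutrophil marker gene S100a8 on log axes, and right, Cxcl13 against the B cell marker gene Cd79a on linear axes, all in CPM with 1 point per library (open for sham, filled for IR). Cxcl5 and S100a8 are both low in the 6 WT sham libraries and higher in the other 12, while Cd79a lies between 0.386 and 2.21 CPM over the 18 libraries and is at 1.06 CPM in aged IR 2, which has the highest Cxcl13.

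Cxcl14 was higher in Sesn2-KO hearts, and its sham and IR libraries overlapped in each kind of mouse. It had 30.0, 49.3 and 25.4 CPM in young sham and 54.5, 30.9 and 30.0 CPM in young IR hearts. Aged hearts had 39.3, 65.8 and 36.5 CPM after sham surgery and 56.1, 78.3 and 38.5 CPM after IR. Sesn2-KO hearts had 129, 114 and 95.2 CPM after sham surgery and 114, 146 and 97.3 CPM after IR. All 6 Sesn2-KO libraries were above all 12 WT libraries. Cxcl14 was higher in Sesn2-KO than in young WT hearts by 1.69 ± 0.33 after sham surgery (adjusted p = 0.00740) and by 1.59 ± 0.33 after IR (adjusted p = 0.0448), 3.23-fold and 3.07-fold by pooled counts.

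The sham call held without each single library in turn. The call after IR was lost without young IR 2 or 3 (adjusted p = 0.174 and 0.102) and without Sesn2-KO IR 1, 2 or 3 (adjusted p = 0.0599, 0.213 and 0.0569), with a log2 fold change of 1.42 to 1.69. No other of the 10 genes was called between Sesn2-KO and young WT hearts after IR, where 0.433% of all genes were called. The differences of Cxcl14 between IR and sham were 0.13 ± 0.32 in young WT, 0.30 ± 0.32 in aged WT and 0.03 ± 0.31 in Sesn2-KO, none of which passed, and the approximate 95% intervals reached at most 0.93. Its difference of the IR response between Sesn2-KO and young WT was -0.10 ± 0.45.

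Cxcl12 was the most abundant of the 10 genes per length over all libraries, with a mean of 52.9 CPM per kb, followed by Cxcl14 with 37.4 and Cxcl16 with 11.1 CPM per kb. In Sesn2-KO sham hearts the order of Cxcl12 and Cxcl14 per length was the reverse in each of the 3 libraries. Cxcl14 was at 52.1 to 70.4 and Cxcl12 at 36.1 to 54.6 CPM per kb. Before division by length Cxcl12, at 203 to 307 CPM, was above Cxcl14, at 95.2 to 129 CPM, in these libraries. The reversal thus rests on the longest coding transcripts, of 5627 bases for Cxcl12 and 1827 for Cxcl14. Counts over genes do not show which transcripts were present. In Sesn2-KO IR hearts Cxcl14, at 53.3 to 79.7 CPM per kb, overlapped Cxcl12, at 43.9 to 71.8 CPM per kb. Cxcl12 had 345, 296 and 269 CPM in young sham, 334, 304 and 243 CPM in young IR and 265, 304 and 335 CPM in aged sham hearts. Its lowest library was aged IR 3 with 189 CPM, beside 358 and 357 CPM in the other 2 of that group. Sesn2-KO hearts had 293, 307 and 203 CPM after sham surgery and 404, 301 and 247 CPM after IR. All groups overlapped, and the IR changes of -0.06, 0.02 and 0.20 in young WT, aged WT and Sesn2-KO had approximate 95% intervals within -0.53 and 0.67. Among its receptors, Cxcr4 was called in no comparison, and Ackr3 fell with IR by 0.51 in young WT (adjusted p = 0.0178) and by 0.52 in aged WT (adjusted p = 0.0135), from 129 to 92.0 and from 146 to 101 CPM on average. The Ackr3 calls were lost without young sham 1 or 3 or young IR 2 or 3 (adjusted p up to 0.0756) and without aged sham 2 or aged IR 1 (up to 0.0780).

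Neither gene of the membrane-anchored pair passed in any comparison. Cxcl16 had 17.7, 25.2 and 25.5 CPM in young sham and 22.3, 30.4 and 25.8 CPM in young IR hearts, and 21.6 to 35.2 CPM in aged sham and 25.7 to 41.7 CPM in aged IR hearts. Sesn2-KO hearts had 34.4, 33.9 and 27.9 CPM after sham surgery and 43.5, 35.5 and 34.1 CPM after IR, above the young WT libraries of the same surgery. The sham difference of 0.49 ± 0.21 (adjusted p = 0.217) did not pass, and neither did that of 0.50 ± 0.21 after IR (adjusted p = 0.341). Of the 50-base words of the Cxcl16 transcripts 20% also occur in Zmynd15, which overlaps it on the other strand and had 2.09 to 6.60 CPM. Cxcr6, the receptor gene, rose with IR by 4.02 ± 1.00 in young WT (adjusted p = 0.0269) and by 2.86 ± 0.79 in aged WT (adjusted p = 0.0375), but the young call was lost without young sham 1, 2 or 3 or young IR 2 or 3 (adjusted p up to 0.149) and the aged call when aged sham 1, aged sham 3, aged IR 1 or aged IR 3 was left out (up to 0.170).

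Cx3cl1, the gene of fractalkine, had 14.9, 17.5 and 18.5 CPM in young sham and 9.83, 17.6 and 16.4 CPM in young IR hearts, and 14.4 to 20.3 CPM over the aged libraries. Sesn2-KO hearts had 22.3, 18.5 and 17.4 CPM after sham surgery and 21.2, 25.3 and 19.8 CPM after IR. After IR the Sesn2-KO libraries were all above the young WT ones, by 0.57 ± 0.19, which did not pass (adjusted p = 0.220). Its change with IR was -0.24, -0.05 and 0.14 in young WT, aged WT and Sesn2-KO, with approximate 95% intervals within -0.61 and 0.49. Cx3cr1, the receptor gene and also a macrophage marker, was called in no comparison. Of 6 ligand-processing proteases, Mmp8 and Mmp9 rose with IR in young and aged WT and were higher in Sesn2-KO sham hearts, both being neutrophil products on the neutrophil list as well, while the sheddase genes Adam10 and Adam17 were not called. The calls of Mmp9 in WT held without each single library; that in Sesn2-KO sham hearts was lost without young sham 1, 2 or 3 or Sesn2-KO sham 1 (adjusted p up to 0.0672). Those of Mmp8 were lost without young sham 1, 2 or 3 or young IR 3 in young WT (up to 0.0722), aged sham 1 in aged WT (0.0760), and young sham 1, 2 or 3 or Sesn2-KO sham 1 or 3 in the sham comparison (up to 0.0791).

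No difference of the IR response between aged and young WT passed for any of the 10 genes, against 0% of all genes (1 of the 10 and 152 of all genes at an unadjusted p below 0.05, and 0 and 0 in DESeq2). The aged-minus-young differences were -0.27 ± 0.59 for Cxcl1, -0.84 ± 0.89 for Cxcl2 and -0.01 ± 1.00 for Cxcl5, with approximate 95% intervals of -1.42 to 0.89, -2.58 to 0.90 and -1.97 to 1.95. Without aged sham 2 the Cxcl5 value was 2.47. For Sesn2-KO minus young WT none of the 10 passed either, against 0.0577% of all genes (3 of the 10 and 769 of all genes at an unadjusted p below 0.05, and 1 and 30 in DESeq2). None of 9 hypoxia target genes was called in any comparison.

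By likeness of log2 CPM over the 18 libraries, given as a description because all points share group structure, Cxcl5 was nearest to Ccl7 (Pearson r 0.98), Spp1 (0.97) and 2200002D01Rik (0.97). Cxcl1 was nearest to Arpc1b (0.97), Il1b (0.97) and Apbb1ip (0.96). Cxcl2, at few counts, was nearest to Cct2 (0.96), Pabpc1 (0.95) and Rnf149 (0.94). Cxcl9 was nearest to Gbp5 (0.96), Tgtp2 (0.96) and Gbp3 (0.95), all interferon-induced GTPase genes, a likeness in which young sham 3 holds the far end. Cxcl10 had no neighbour above 0.86 (Themis2). Cxcl13 was nearest to Pla1a, Ces2g and Cela1 (0.92 each), and Cxcl14 to Nkain2 (0.91) and Mgp (0.90). Cxcl16 was nearest to C1qc (0.93), a complement gene of macrophages, Cxcl12 to Clec14a (0.86), an endothelial gene, and Cx3cl1 to Bcl2 (0.85).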

How the data were processed

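RNA of 18 left ventricles was measured by sequencing of polyadenylated RNA with a stranded library kit, per the labels' protocols. The authors deposited 1 table per sample with raw whole-number counts per gene symbol. The submitters' processing notes name build mm10 and the tools SAMtools, HTSeq, TopHat2, Bowtie2 and FastQC; versions, strand option and annotation were not given in the sources. The 2 summary lines, fragments in no gene (6.12% to 9.06%) and in several genes (0.63% to 0.76%), stayed out of totals and tests.

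CPM is a count divided by its library's gene total and multiplied by 1000000. Counts were tested in edgeR 4.0.16 (R 4.3.3) with filterByExpr, TMM scaling and robust quasi-likelihood, in 1 model with a mean per group over all 18 libraries, as 9 contrasts. P-values were adjusted by Benjamini-Hochberg over 13859 genes within each contrast, with calls at adjusted p-values below 0.05. Approximate 95% intervals of log2 values come from the standard error, and those of count ratios are exact for counting error. Likeness used log2 CPM with a prior count of 2 and other genes of at least 1 CPM on average. Positions and transcript lengths came from GENCODE M21 by symbol (95.5% of symbols found once).

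All 10 genes are named, with Sesn2, the receptors, and up to 4 called members per pathway list by smallest p. The members and lists were chosen with earlier results of these data known. Other marker genes, Igtp and Cxcl3 are named for the values they bear on, chosen after their values were seen. Another near gene of Cxcl14 is not reported here. On simulated counts, the fit found 63% of 2-fold and 90% of 4-fold changes for IR in young WT (13754 genes), 62% and 89% for Sesn2-KO sham hearts (13742 genes) and 32% and 74% for the difference of the IR response of Sesn2-KO (13751 genes). Alternatives were DESeq2 1.42.0 size factors and its Wald test, no filter, a fit of only the groups compared, a replicate block, a transcript length covariate, libraries tilted by transcript length left out, and each library left out in turn.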

Additional observations from a re-analysis of the deposited data

How the results depend on the processing

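Of the 90 log2 fold changes (10 genes in 9 comparisons), 38 changed sign in at least 1 alternative. None of the 38 was called or had an unadjusted p below 0.05 with all libraries, and their values there were -0.59 to 1.05. Fewer of the 10 genes were called when libraries whose deviations from their group followed transcript length were left out. This cannot be told apart from having fewer libraries. Without the 10 libraries with a rank correlation above 0.3 in size, young sham, aged sham, aged IR and Sesn2-KO sham hearts each kept a single library. No count of calls is given for that setting. A setting added after seeing the data left out only the 6 tilted to long transcripts, 1 library of each group with correlations of 0.34 to 0.52. The counts were then 0 for IR in young WT and 1 for IR in aged WT. They were 2 and 0 for Sesn2-KO against young WT in sham and IR hearts.

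With the compared groups alone, 2 genes were called for IR in young WT, 4 for IR in aged WT, where Cxcl9 joined, and 0 for Sesn2-KO against young WT IR. For the latter DESeq2 size factors and no filter gave 0 and the DESeq2 Wald test gave 2. The Wald test gave 1 for aged against young IR hearts and 1 for the Sesn2-KO difference of the IR response. The cause of these moves was not tested. Leaving out 1 library gave 3 to 4 genes for IR in young WT, 2 to 3 for IR in aged WT, 4 to 5 for Sesn2-KO sham hearts, 0 to 1 for Sesn2-KO IR hearts, 0 to 1 for aged against young IR hearts and 0 to 1 for the Sesn2-KO difference of the IR response. All genes called ranged from 16 to 2020 for IR in young WT and from 7 to 1679 for Sesn2-KO sham hearts.

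The labels do not say whether same-numbered libraries share more than a number. Their deviations correlated at -0.49 to 0.82 (median 0.04), against -0.68 to 0.66 (median -0.02) for different numbers. That spread is too wide to show whether some of them are tied. With the replicate number as a block 2 genes were called for Sesn2-KO against young WT IR, where Cxcl13 joined Cxcl14, and the other 8 comparisons kept their counts. Depth limits Cxcl2 and Cxcl13, with 5 and 2 counts over the young sham libraries.

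Among the values printed that changed sign, leaving out 1 library at a time gave these ranges. For IR in young WT they were -0.24 to 0.46 for Cxcl14, -1.18 to 0.82 for Cxcl10 and -0.19 to 0.06 for Cxcl12. In aged WT they were -0.01 to 0.62 for Cxcl14, -0.15 to 0.27 for Cxcl12 and -0.13 to 0.06 for Cx3cl1. In Sesn2-KO they were -0.14 to 0.16 for Cxcl14, -0.31 to 0.32 for Cxcl9 and -0.03 to 0.35 for Cxcl12. Sesn2-KO against young WT gave -1.03 to 0.54 for Cxcl10 in sham and -0.16 to 1.09 for Cxcl5 in IR hearts. The aged difference of the IR response was -0.58 to 2.47 for Cxcl5 and -0.67 to 0.25 for Cxcl1, and the Sesn2-KO one was -0.43 to 0.27 for Cxcl14. A length covariate turned Cxcl14 to -0.06, -0.10 and -0.07 for IR in young WT, aged WT and Sesn2-KO and Cxcl12 to -0.30 in aged WT, where no filter gave -0.03 and the block -0.05. Without the 10 tilted libraries Cxcl12 was 0.20 in young WT, Cx3cl1 0.24 in aged WT and Cxcl14 -0.01 in Sesn2-KO, and the aged differences were 2.78 for Cxcl5 and 0.03 for Cxcl1. Without the 6, Cxcl12 was 0.13 in young WT and the aged difference of Cxcl5 was 0.64. That difference was 0.08 with the block and 0.01 in DESeq2.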
